A study of Mus musculus with 2 samples.

Results

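Fracture calluses of 10 days were examined for 10 genes of extracellular matrix breakdown among the 19430 genes of the count tables: the stromelysins *Mmp3* and *Mmp10*, the gelatinase *Mmp2*, the membrane-type metalloproteinases *Mmp14* and *Mmp16*, the aggrecanases *Adamts4* and *Adamts5*, and the tissue inhibitors *Timp1*, *Timp2* and *Timp3*. They were taken by symbol, and each has a single row in both tables. The measurements are Visium spot counts from formalin-fixed tissue, in which probe pairs for each gene are counted as unique molecules (UMIs) in spots 100 µm apart, each covering several cells. Mice aged 8 weeks had a distal tibia fracture held by an intramedullary pin, and the callus was taken on day 10.

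Control mice carried Nf1+/flox with no Cre, and Nf1Postn mice carried Postn-cre;Nf1 flox/-, so both had a floxed *Nf1* allele and the mutant alone had a germline null allele and a Cre driven by the periostin promoter. Postn-cre acts in periosteal and other periostin-lineage cells, so a mutant spot can hold recombined and unrecombined cells together. The methods describe a control and a mutant callus sharing a block and serial sections cut from blocks, whereas the labels call the 2 sections biological replicates, so it is not settled whether both sections come from the same mice. Sections and spots are therefore not counted as mice, no p-value is given, and every interval printed here is a 95% interval for counting error only. The capture area cut off part of the tissue.

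MMPs are secreted or membrane-bound enzymes that cut collagens, fibronectin, proteoglycans and other matrix proteins, and most are made as inactive precursors. Stromelysins activate other precursors, and MMP14 on the cell surface activates the MMP2 precursor with the help of TIMP2. TIMPs bind the active sites of these enzymes, and TIMP3, which stays bound to matrix, also blocks the aggrecanases ADAMTS4 and ADAMTS5. In a healing fracture, cartilage and provisional matrix are removed as woven bone replaces them.

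Section 1 held 1700 control spots (13562254 UMIs) and 1341 Nf1Postn spots (3462224 UMIs), and section 2 held 1778 control spots (12122419 UMIs) and 1556 Nf1Postn spots (5984157 UMIs). The median control spot had 7053 and 5718 UMIs in the 2 sections and the median mutant spot 2030 and 3240, so levels are given in CPM, UMIs of a gene relative to all UMIs of the spots pooled. Of the 6380 spots, 5 carried no genotype and were left out. *Nf1* itself was at 87.8 and 79.0 CPM in the control callus and at 65.6 and 49.6 CPM in the mutant callus. Tissue make-up also moved with genotype: the 4 skeletal muscle markers summed to 7908 and 11228 CPM in the control and 35370 and 66046 CPM in the mutant, the 3 erythroid markers to 154 and 272 against 1714 and 1527 CPM, and the 6 cartilage markers to 45483 and 28687 against 3989 and 8023 CPM. Fewer cells of a type and less RNA per cell cannot be told apart in these spots.

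*Mmp3* and *Mmp10* lie on chromosome 9 with *Mmp1a* between them, at 7445822 to 7455976 and at 7502353 to 7510242 (mm39, plus strand). Their 250 bases before the annotated transcript start are shown because both stromelysins had counts near the same place in the tissue, described further on. Those counts were few for *Mmp10*. Capitals mark TGANTCA, the motif of AP-1 (Fos and Jun dimers); it reads the same on both strands, so a single search covers them. The sequences are from the GRCm39 genome with GENCODE vM39 canonical transcript starts, 5′ to 3′ on the plus strand, at chr9:7445572-7445821 and chr9:7502103-7502352.
Mmp3: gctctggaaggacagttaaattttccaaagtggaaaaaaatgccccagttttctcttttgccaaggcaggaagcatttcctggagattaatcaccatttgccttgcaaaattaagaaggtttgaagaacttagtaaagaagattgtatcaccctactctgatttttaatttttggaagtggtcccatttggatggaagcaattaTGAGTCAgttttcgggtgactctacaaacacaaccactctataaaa
Mmp10: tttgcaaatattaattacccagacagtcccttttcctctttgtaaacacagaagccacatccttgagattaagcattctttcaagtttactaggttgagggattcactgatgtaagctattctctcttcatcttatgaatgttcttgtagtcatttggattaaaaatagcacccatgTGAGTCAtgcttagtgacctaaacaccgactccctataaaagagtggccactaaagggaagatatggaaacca
The motif begins 46 bases before the *Mmp3* start and 73 bases before the *Mmp10* start, both times as TGAGTCA. It was in the same window of 2 of the 10 genes described here, these 2, and in 6.18% of 21738 protein-coding genes. This is a match of letters only.

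*Mmp3* was the member that differed most between places. It cleaves proteoglycans, fibronectin and several collagens. The control callus held 10.8 CPM in section 1 (146 UMIs, interval 9.09 to 12.7) and 90.1 CPM in section 2 (1092 UMIs, interval 84.8 to 95.6), whereas the Nf1Postn callus held 37.3 CPM (129 UMIs, interval 31.1 to 44.3) and 45.5 CPM (272 UMIs, interval 40.2 to 51.2). The mutant was thus above the control in section 1, by 1.79 on the log2 scale (interval 1.44 to 2.14), and below it in section 2, by -0.99 (interval -1.18 to -0.79). The sections differed in the control tissue: section 2 exceeded section 1 by 8.37-fold in the control (log2 3.06, interval 2.81 to 3.32) and by 1.22-fold in the mutant (log2 0.29, interval -0.02 to 0.60). In a ranking of 11851 genes that reached 50 UMIs in both sections, *Mmp3* had the highest ratio of control section 2 to control section 1, and 0.0169% of them (2 genes) reached 5-fold.

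**Figure D1:**
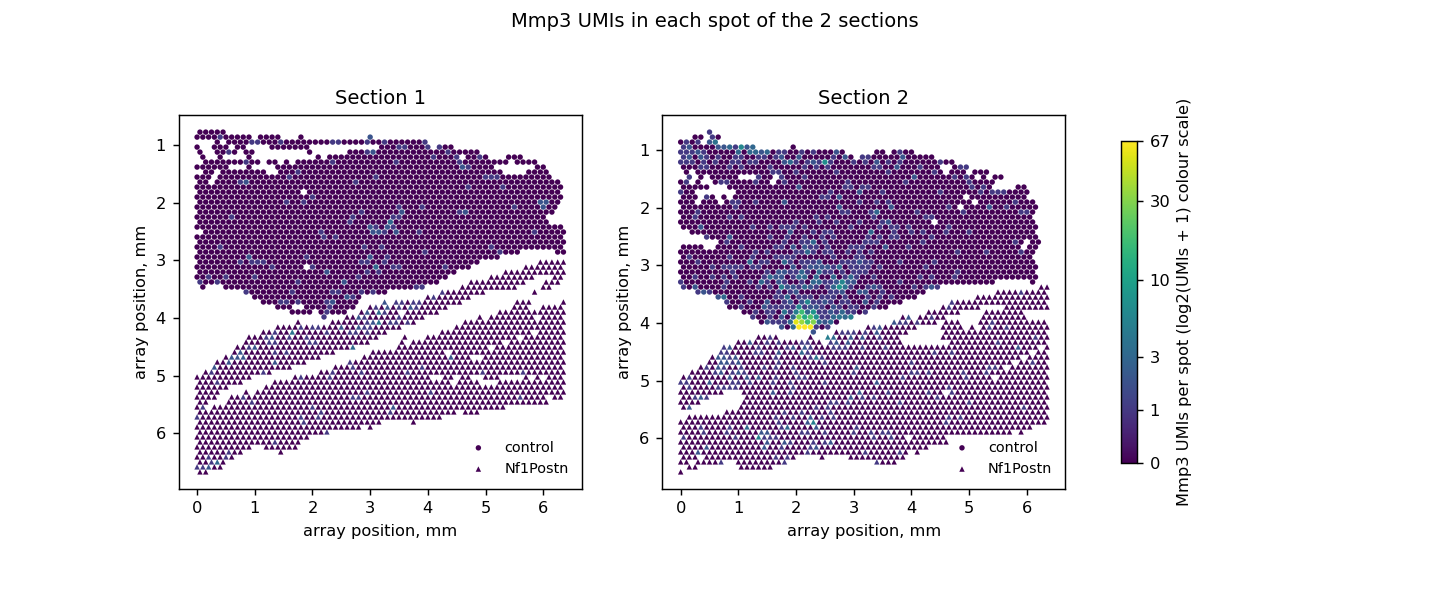
Mmp3 UMIs in each spot at its position on the capture area in mm, circles for the control callus and triangles for the Nf1Postn callus, on a log2(UMIs + 1) colour scale. The brightest spots, up to 67 UMIs, lie at the control callus edge of section 2, and no spot in the mutant callus or in section 1 passes 5.

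Much of the *Mmp3* of section 2 lay in a small patch at the edge of the control callus, on the side facing the mutant callus. Genotypes of spots were taken as labelled by the authors, who give no rule for dividing one callus from the other. Placing the patch in the control callus rests on those labels. The section 2 ratio of mutant to control *Mmp3* with the patch included rests on them too. The spot with most *Mmp3* held 67 UMIs. Within 250 µm of it, a circle drawn after the values were seen, lay 13 control spots, which held 398 of the 1092 UMIs, or 36.4%, although they were 0.731% of the control spots and 0.894% of the control UMIs of that section. Counts in those 13 spots ran from 1 to 67 with a median of 28, and no spot among them lacked *Mmp3*. By contrast the highest count in any spot was 3 in the control callus of section 1, 4 in the mutant of section 1 and 5 in the mutant of section 2. In the section 2 control outside the patch it was 17, and 9 of those 1765 spots held over 5. Depth was much the same inside and around the patch, with median totals of 8731 UMIs in the patch and 8707 in the 163 control spots 250 to 1000 µm away.

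*Mmp3* was lower at each step away from that spot out to 450 µm. Because the spot was picked as the highest, some fall with distance is set by that choice. It was at 5597 CPM within 150 µm (5 spots, 17 to 67 UMIs each), 2341 CPM at 150 to 250 µm, 532 CPM at 250 to 350 µm and 280 CPM at 350 to 450 µm. From 450 to 1500 µm it stayed between 110 and 142 CPM, and beyond 1500 µm between 28.7 and 42.1 CPM. The nearest Nf1Postn spot, 200 µm from the peak, held 0 UMIs, and the 16 Nf1Postn spots within 450 µm held 16 UMIs in all, at most 5 in a spot. In CPM those mutant spots were at 303 CPM (4 UMIs, interval 82.5 to 776) for 250 to 350 µm and 326 CPM (12 UMIs, interval 169 to 570) for 350 to 450 µm. Both intervals overlapped those of the control spots at the same distances (396 to 700 and 195 to 390). At 250 to 450 µm the calluses were thus not told apart by *Mmp3* level. The mutant callus was at 81.7 and 83.2 CPM at 450 to 600 and 600 to 800 µm, and at 10.7 CPM beyond 3000 µm. The 600 to 800 µm interval (49.3 to 131) overlapped that of 250 to 350 µm but not that of 350 to 450 µm. At the same array positions in section 1 the control callus held at most 22.2 CPM in every bin from 250 µm outward. Nearer bins are not given for it, and an array position need not be the same place in the callus of both sections.

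**Figure D2:**
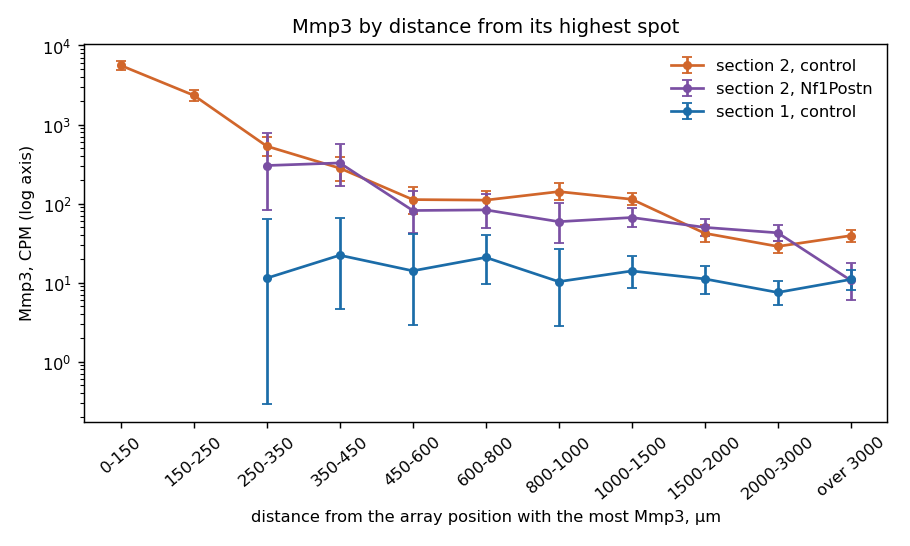
Mmp3 in CPM on a log axis against distance in µm from the array position with most Mmp3 in section 2, with exact Poisson intervals, for the control and Nf1Postn calluses of section 2 and the control callus of section 1. Section 2 control goes from 5597 to 39.3 CPM, whereas section 1 control, shown from 250 µm outward, stays at or below 22.2 CPM.

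The patch did not account for all of the difference between the sections. Outside it the control callus of section 2 was still at 57.8 CPM (694 UMIs), 5.37-fold the level of section 1, and the mutant was then below the control by -0.35 on the log2 scale (interval -0.55 to -0.14). Of 11 tissue regions, obtained by clustering and found in the control callus of both sections, 10 had more *Mmp3* in CPM in section 2. Spots with no *Mmp3* made up 73.9% of the section 2 control spots outside the patch, 92.8% of the section 1 control spots, 92.8% of the section 1 mutant spots and 87.0% of the section 2 mutant spots.

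The abundant members were not concentrated in the patch. *Mmp2* was at 1043 CPM inside it and 901 CPM in the surrounding ring of 250 to 1000 µm, *Mmp14* at 1190 and 1345 CPM, *Timp2* at 1642 and 1798 CPM, and each of those intervals included no difference. *Timp3* was lower inside, at 175 against 313 CPM (log2 -0.84, interval -1.58 to -0.18), and *Timp1* stood at 73.8 against 116 CPM (8 UMIs inside, log2 interval -1.89 to 0.36). *Mmp10*, *Adamts4*, *Adamts5* and *Mmp16* had 2, 3, 4 and 0 UMIs inside, too few to say, and the *Mmp10* level was 18.5 CPM inside and 3.43 CPM in the ring (5 UMIs, log2 interval -0.96 to 5.04). Across 9187 genes with at least 20 UMIs in patch and ring together, 10.4% were at least 2-fold higher inside and 4.05% at least 2-fold lower.

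Genes higher in the patch along with *Mmp3* came from several groups, given as a description because the patch was picked by its *Mmp3*. Among genes with at least 20 UMIs inside, *Mmp3* itself had the highest ratio to the ring (22.5-fold). The next 7 in order were *Cxcl10*, an interferon-responsive chemokine (15.8-fold), *Grem1*, a secreted BMP antagonist (14.6-fold), interferon-responsive *Rsad2* (11.4-fold), the chromatin protein gene *Hmga2* (10.5-fold), *Crabp1*, a retinoic acid binding protein (8.16-fold), the chemokine *Ccl8* (8.08-fold) and interferon-responsive *Ifit3* (7.14-fold). Some other matrix proteases were higher too, each with an interval above 0. *Mmp11* (stromelysin-3) was higher by 2.26 on the log2 scale, *Adamts15* by 2.14, *Mmp19* by 1.92, *Adamts14* by 1.75, *Mmp13* by 1.12 and *Mmp9* by 0.71. *Adamts8* (4 UMIs inside, log2 3.43, interval 1.10 to 5.64) and *Mmp12* (7 UMIs inside, log2 1.51, interval 0.09 to 2.71) were higher on few counts. The other MMP and ADAMTS genes of the network list given further on had intervals that included no difference, or no counts. Their ratios lay on both sides of 0. *Plau* was likewise higher by 1.78 on the log2 scale (30 UMIs inside, interval 1.15 to 2.36). It encodes urokinase, which turns plasminogen into plasmin and through it activates MMP precursors. *Il1rn*, the natural antagonist of interleukin-1, was higher by 1.67 (interval 1.21 to 2.10). *Il1b* had 0 UMIs inside and 25 in the ring, too few to say (upper limit of the log2 ratio 1.10). Of the other listed inducers, *Tnf* (4 UMIs inside, log2 2.17, interval 0.08 to 3.89) and *Osmr* (log2 0.92, interval 0.03 to 1.70) were higher. The rest had intervals that included no difference. Among the AP-1 genes, *Fosb* was higher by 2.54 (13 UMIs inside), *Fosl2* by 0.51 and *Jun* by 0.44, each with an interval above 0. Intervals of *Fos*, *Fosl1*, *Junb* and *Jund* included no difference. The cartilage matrix genes *Col2a1* and *Acan* were lower inside, by -2.95 and -1.62 on the log2 scale. Macrophage markers (4 of 4 found) summed to 554 CPM inside and 446 CPM in the ring and synovial lining markers (2 of 3 found inside) to 64.6 and 23.3 CPM, both with overlapping intervals. Osteoclast markers summed to 7335 and 3584 CPM, and Schwann cell markers to 0 UMIs inside (upper limit 34.0 CPM) and 27.4 CPM in the ring. Fibroblast markers summed to 2999 CPM inside (interval 2682 to 3343) and 2525 CPM in the ring (interval 2444 to 2608). Tendon markers were lower inside, at 157 against 674 CPM, as were osteoblast markers, at 221 against 800 CPM. The part of these cell types in the *Mmp3* value was not tested.

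*Mmp10* was close to the floor of the assay. It encodes the second stromelysin, with substrates much like those of *Mmp3*. The control callus held 4 UMIs in section 1 and 15 in section 2, in 18 spots altogether with at most 2 UMIs in a spot, and the Nf1Postn callus held 0 UMIs in both. A count of 0 among 9446382 mutant UMIs allows up to 0.318 CPM (3 UMIs over the group), so *Mmp10* was at least 2.33-fold lower in the mutant callus against that floor, with 0.740 CPM in the control. That fold leaves out the counting error of the 19 control UMIs; with it, the upper limit of the log2 ratio was -0.78. In section 1 alone the counts were too few for any fold. Of the 15 control UMIs of section 2, 6 lay within 600 µm of the *Mmp3* peak, where 3.77% of the spots and 4.70% of the UMIs of that callus were. The patch itself held 2 of them and the control spots at 600 to 800 µm held 0, so that share depends on the distance taken.

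No member differed at least 2-fold in the same direction in both sections. Of the 9 members that reached 50 UMIs in both sections, 0 were called higher and 0 lower, where 4.21% of 11851 genes were at least 2-fold higher in Nf1Postn in both sections and 1.58% at least 2-fold lower. At 1.5-fold, *Mmp14* and *Timp1* were lower in both sections (6.37% of all genes were) and 0 members were higher (8.2% of all genes were). By any amount, 5 of 9 members were lower in both sections, against 40.6% of all genes, and 2 (*Mmp3* and *Adamts4*) had opposite directions in the sections, against 29.4%. The median log2 ratio over the 9 members was -0.23 in section 1 and -0.82 in section 2, beside 0.06 and -0.21 over all genes.

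**Figure D3:**
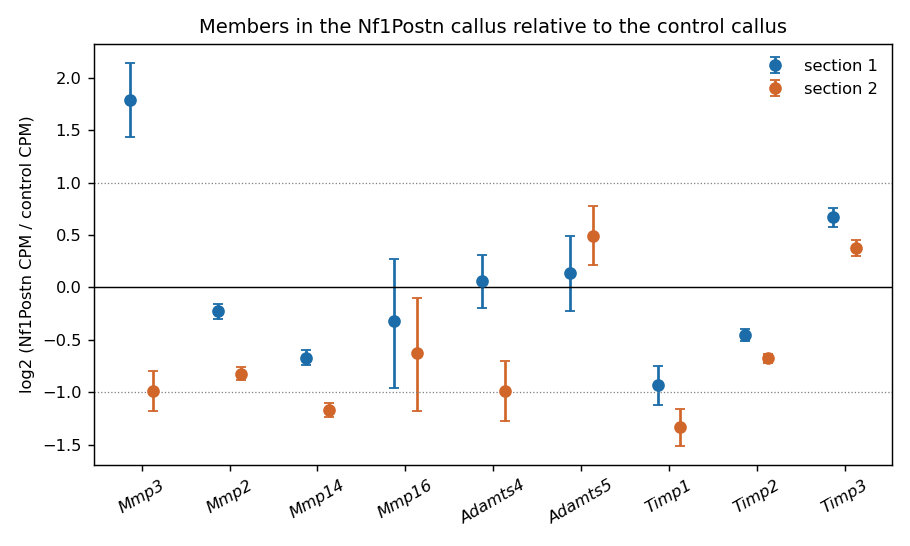
Log2 ratio of Nf1Postn to control CPM for the 9 members with enough counts, by section, with 95% exact conditional intervals for counting error; dotted lines mark 2-fold. Mmp3 stands at 1.79 in section 1 and -0.99 in section 2, Mmp14 and Timp1 below 0 in both, and Timp3 above 0 in both.

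*Mmp14*, the main collagen-cutting enzyme of the cell surface, was at 839 CPM (interval 824 to 855) in the control and 527 CPM (interval 503 to 552) in the mutant in section 1, and at 857 CPM (interval 841 to 874) and 381 CPM (interval 366 to 397) in section 2. Both control values lay above both mutant values, and the control exceeded the mutant 1.59-fold and 2.25-fold. *Mmp2*, which it activates and which cuts denatured collagen and basement membrane collagen, was at 659 and 765 CPM in the control and at 563 and 432 CPM in the mutant, or 1.17-fold and 1.77-fold higher in the control. *Mmp16*, a second membrane-type enzyme, was at 10.1 and 10.3 CPM against 8.09 and 6.68 CPM. Its section 1 interval, -0.96 to 0.27 on the log2 scale, included no difference.

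*Timp1*, a secreted inhibitor of most MMPs, had the lowest mutant level relative to control over both sections among the 9 members with 50 UMIs. It was at 148 and 132 CPM in the control and 77.7 and 52.3 CPM in the mutant, a ratio of 1.91 in section 1 and 2.52 in section 2 in favor of the control (pooled log2 -1.19, interval -1.32 to -1.06). *Timp2*, the inhibitor that also takes part in MMP2 activation, was at 1233 and 1324 CPM against 902 and 828 CPM, 1.37-fold and 1.60-fold higher in the control. *Timp3* went the other way: 258 and 283 CPM in the control and 411 and 368 CPM in the mutant, higher in the mutant by 0.67 and 0.38 on the log2 scale.

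The aggrecanases showed no shared direction. *Adamts4* was at 44.8 CPM in the control and 46.8 CPM in the mutant in section 1 (log2 interval -0.20 to 0.31), and at 41.0 and 20.7 CPM in section 2 (log2 -0.98, interval -1.28 to -0.70). *Adamts5* was at 22.6 against 24.8 CPM in section 1 (log2 interval -0.22 to 0.49) and at 21.4 against 30.1 CPM in section 2 (log2 0.49, interval 0.21 to 0.77). *Acan*, which encodes aggrecan, the substrate that names these enzymes, was lower in the mutant by -2.84 and -2.07.

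The differences in *Mmp14*, *Timp1* and *Timp2* were smaller when regions led by muscle or red cell markers were left out. With the 8 regions left out in which markers of muscle, regenerating muscle or red cells led, 2609 of 3478 control spots but 302 of 2897 mutant spots remained. The mutant spots kept include the 83 of a region with Schwann cell markers, described further on. The pooled log2 ratio moved from -0.96 to -0.04 for *Mmp14*, from -1.19 to -0.16 for *Timp1* and from -0.58 to -0.06 for *Timp2*. It moved from -0.56 to 0.22 for *Mmp2*, from -0.51 to 0.39 for *Adamts4* and from -0.50 to 0.28 for *Mmp16*, a change of sign, and from 0.51 to 0.93 for *Timp3*. The regions left out were not muscle and blood alone. The one led by *Igkc* and *Car2* (730 spots) held osteoblast markers at 3678 CPM, and the one led by *Angptl7* and *Cilp2* (456 spots) held osteocyte markers at 2020 CPM. The part of muscle, red cells or other tissue in these ratios was not tested.

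Shares of spots with a UMI followed depth as well as level. *Mmp14* was found in 89.6% and 89.1% of control spots and 51.9% and 51.7% of mutant spots. With each spot thinned to 1000 UMIs, leaving out 128 control and 328 mutant spots with fewer, those shares were 49.97% and 52.8% against 33.3% and 26.9%. *Timp1* stood at 54.3% and 48.5% against 14.5% and 14.9% of spots, and after thinning at 12.4% and 11.98% against 6.57% and 4.64%. *Timp3* was in fewer mutant spots before thinning, 50.2% and 65.7% against 76.5% and 73.6%, and in more after it, 31.0% and 31.5% against 25.6% and 25.01%. *Mmp3* at equal depth was in 1.33% and 6.73% of control spots and 3.46% and 4.37% of mutant spots.

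Spots were also sorted into 15 regions by clustering, with the members, the other protease genes and the cell type markers left out, and the regions are called here by leading genes. The region led by *Gpnmb*, *Fbn2* and *Lrrc15* (491 spots) carried the highest levels of *Mmp2* (1102 CPM), *Mmp14* (1374 CPM) and *Timp2* (2015 CPM). These were 1.96-fold, 2.23-fold and 2.01-fold the levels in all other spots, and 94.4% of its section 1 control spots bear the authors' name ossifying perichondrium. The same region held 125 CPM of *Mmp3*, 3.92-fold the other spots, and 11 of the 13 patch spots. Its *Mmp3* was at 15.2 CPM in the control of section 1 and 259 CPM in the control of section 2.

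**Figure D4:**
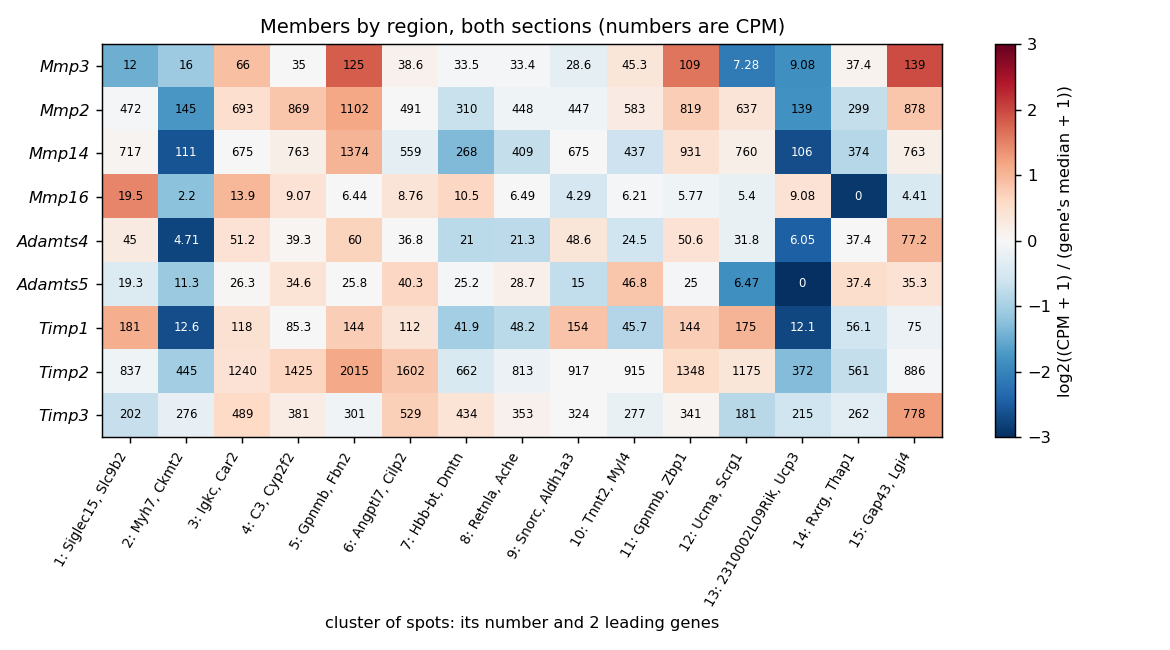
CPM of 9 members in 15 regions over both sections, each cell colored by the log2 ratio to that gene's median region (1 added to both). Mmp2, Mmp14 and Timp2 are highest in region 5, Mmp16 and Timp1 in region 1, Timp3, Adamts4 and Mmp3 in region 15, and most members are lowest in the muscle regions 2 and 13.

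Of the 9 members with at least 100 UMIs, 6 reached 2-fold in some region over the other spots (*Mmp3*, *Mmp14*, *Mmp16*, *Timp2*, *Timp3* and *Adamts5*), beside 31.5% of 12057 genes. *Mmp16* was highest in the region led by *Siglec15*, *Slc9b2* and *Mt3* (888 spots), at 19.5 CPM (142 UMIs, interval 16.5 to 23.0), 2.90-fold the other spots. That region's top marker list was the osteoclast list and 95.9% of its section 1 control spots were named woven bone. Osteoblast and osteocyte markers were highest in that region too, at 6779 and 2478 CPM. *Timp1* was also highest there, at 181 CPM, with 175 CPM in the region led by *Ucma* and *Scrg1*. Those intervals overlapped (172 to 192 and 162 to 189). *Mmp3* was scarce in both, at 11.97 and 7.28 CPM. Cartilage was the top marker list of the *Ucma* and *Scrg1* region, but 55.2% of its section 1 control spots were named ossifying perichondrium. In the region led by *Snorc* and *Aldh1a3*, 96.1% of those spots were named cartilage. *Timp1* was at 154 CPM and *Mmp3* at 28.6 CPM in that region.

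*Timp3* peaked in a region found only in the mutant callus. It held 83 spots, 46 and 37 in the 2 sections, was led by *Gap43*, *Lgi4* and *Cldn1*, and carried the 3 Schwann cell markers at 4.88-fold the other spots. Those markers summed to 278 CPM (interval 231 to 331), which overlapped their 228 CPM (interval 212 to 245) in the muscle region led by *Myh7* and *Ckmt2*. Fibroblast markers also had their highest regional sum in the *Gap43*, *Lgi4* and *Cldn1* region, at 3169 CPM. *Timp3* was at 778 CPM there (interval 699 to 864), with 854 CPM in section 1 and 706 CPM in section 2. *Adamts4* was at 77.2 CPM (35 UMIs, interval 53.8 to 107) and *Mmp3* at 139 CPM (63 UMIs, interval 107 to 178), with 140 and 138 CPM in the 2 sections. Both *Adamts4* and *Mmp3* had their highest regional value there. Each interval overlapped that of the *Gpnmb*, *Fbn2* and *Lrrc15* region (53.7 to 66.7 for *Adamts4*, 116 to 135 for *Mmp3*).

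*Adamts5* was highest in the region led by *Tnnt2* and *Myl4*, where embryonic myosin and *Myog* were the top marker list, at 46.8 CPM (128 UMIs, interval 39.0 to 55.6), 2.15-fold the other spots. It was at 6.47 CPM in the *Ucma* and *Scrg1* region with its cartilage markers. In the mature muscle region led by *Myh7* and *Ckmt2*, *Mmp14* was at 111 CPM, *Mmp2* at 145 CPM, *Timp1* at 12.6 CPM and *Adamts4* at 4.71 CPM, between 0.10-fold and 0.21-fold the level in the other spots. *Timp3* was an exception with 276 CPM there, 0.91-fold the other spots.

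Within regions, few members were far apart between genotypes. Of 63 pairs of a member and a region with at least 20 spots of each genotype and 50 UMIs, 5 (7.94%) were at least 2-fold apart, beside 5.22% of 64104 such pairs over all genes. Those 5 were *Mmp3*, *Timp1*, *Timp3* and *Adamts4* with 2, 1, 1 and 1 regions. The pairs pool both sections, and regions differ in their mix of sections, so section and genotype are not kept apart. In section 2 alone 1 of 46 pairs was at least 2-fold apart, and in section 1 alone 1 of 29. With sections pooled, *Timp3* was higher in the mutant with an interval above 0 in 6 of 9 regions and lower in 1, the *Tnnt2* and *Myl4* region. Its widest gap was in the region led by *Gpnmb*, *Zbp1* and *Rgs16*, at 300 CPM in the control and 653 CPM in the mutant, although 255 of the 305 spots of that region are section 2 control spots.

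With sections pooled as well, *Mmp14* had an interval below 0 in 6 of 9 regions and above 0 in 1, and *Timp2* in 6 and 3 of 9. No share over all genes is given for such counts of regions. In the *Gpnmb*, *Fbn2* and *Lrrc15* region *Mmp14* was at 1396 CPM in the control and 1146 CPM in the mutant (log2 -0.28, interval -0.41 to -0.16), and *Timp1* was higher in the mutant, 188 against 139 CPM (log2 0.43, interval 0.10 to 0.74). Mutant spots in that region numbered 53 of 491. *Mmp3* there was at 15.2 CPM in the control and 30.8 CPM in the mutant in section 1, where 4 mutant UMIs were too few for a direction. In section 2 it was at 259 and 46.5 CPM, where the control spots include those of the patch.

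Along the axis of the control callus *Mmp16* differed most with distance from the fracture plane. SpatialTime, a relative distance from the fracture plane that the authors set for skeletal spots, was joined by spot barcode for the control callus of section 1 and used as a position label only. *Mmp16* went from 2.01 CPM in the bin nearest the fracture (7 UMIs) through 7.86, 13.8 and 16.5 to 16.3 CPM in the farthest (23 UMIs), 8.13-fold higher at the far end (log2 3.02, interval 1.76 to 4.49). *Timp1* went from 173 CPM in the nearest bin to 95.1 CPM in the farthest, 1.81-fold lower (log2 -0.86, interval -1.14 to -0.59). *Mmp16* was the only member at least 2-fold apart between those ends, where 13.7% of 12391 genes were. By the mean over spots of log2(CPM + 1) its difference was 0.64, short of 2-fold.

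**Figure D5:**
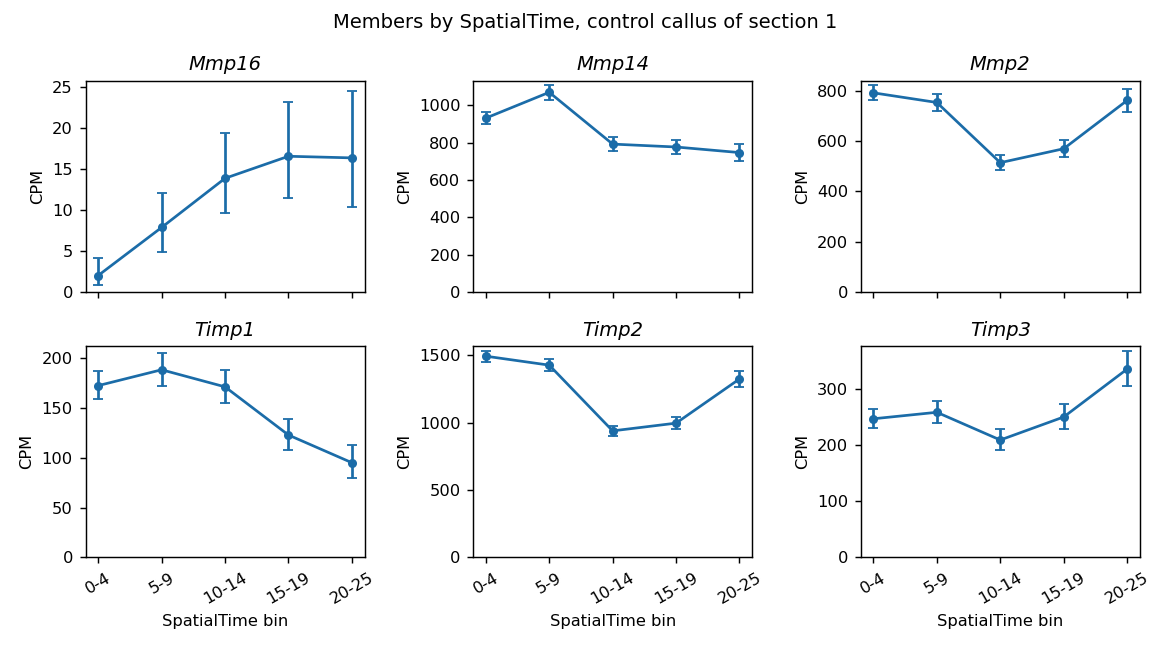
CPM of 6 members in 5 SpatialTime bins of the section 1 control callus, from nearest to farthest from the fracture plane, with exact Poisson intervals and axes starting at 0. Mmp16 goes from 2.01 to 16.3 CPM, Timp1 from 173 to 95.1 CPM, and Mmp2 and Timp2 share a dip in the bin of 10 to 14.

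*Mmp2* and *Timp2* shared a shape along that axis, each lowest in the bin of 10 to 14 (514 and 938 CPM) and higher at both ends (791 and 761 CPM for *Mmp2*, 1492 and 1323 CPM for *Timp2*). *Timp3* was highest in the farthest bin, 335 against 247 CPM in the nearest (log2 0.44, interval 0.28 to 0.61), and *Adamts5* differed by 0.66 (interval 0.08 to 1.22). *Mmp14* was highest in the second bin at 1070 CPM. By the authors' cluster names in the same spots, *Adamts5* was highest in progenitor spots (55.6 CPM), as were *Timp2* (1794 CPM) and *Timp3* (432 CPM), *Mmp14* in ossifying perichondrium (1101 CPM), and *Mmp16* was at 17.1 CPM in woven bone (71 UMIs) against 4.44 CPM in cartilage (7 UMIs).

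Depth into the tissue also separated members of the control callus. *Timp1* was lower within 110 µm of the tissue edge than beyond 610 µm, at 96.0 against 197 CPM in section 1 and 83.5 against 169 CPM in section 2. *Adamts5* was higher at the edge, at 42.5 against 15.1 CPM and 32.6 against 17.2 CPM. *Timp3* ran the same way as *Adamts5*, at 323 against 259 CPM and 304 against 248 CPM. In the mutant callus *Adamts5* did not repeat that order in section 2, at 25.02 CPM at the edge and 48.8 CPM beyond 610 µm.

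Spots were grouped into tiles of 4 array rows by 8 columns to set the members beside each other and beside all genes with at least 500 UMIs. Over 192 tiles in section 1 and 216 in section 2, *Mmp2* and *Timp2* were each other's closest gene, with Pearson r of 0.82 and 0.81 for log2(CPM + 10). *Antxr1*, a collagen-binding receptor, came next for both, followed by *Col12a1* for *Mmp2* and *Ptms* for *Timp2*. In the control callus alone r was 0.81 and 0.67 for *Mmp2* with *Timp2*, 0.78 and 0.54 for *Mmp2* with *Mmp14*, and 0.68 and 0.70 for *Mmp14* with *Timp2*. Tiles share a library and differ in depth, so these are descriptions.

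The closest genes to *Mmp14* were *Bgn*, *Col6a2* and *Vim* (r of 0.79, 0.78 and 0.78 in section 1). Those to *Timp1* were *Serpinh1*, a collagen chaperone, *Lox*, a collagen crosslinking enzyme, and *Rack1* (0.73, 0.70 and 0.69). *Mmp3* was followed by *Ctsl*, *Postn* and *Mfap5* (0.41, 0.41 and 0.40). *Timp3* was followed by *Wasf2*, *Pabpc1* and *S100a6*, *Adamts4* by *Rack1*, *Ptms* and *Calr*, and *Adamts5* by *S100a6*, *C1qb* and *Fstl1*, with r between 0.34 and 0.55 in section 1. All r values of closest genes take control and mutant tiles together, so they include differences between the calluses.

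Adjacent spots were alike for the abundant members in every callus. Moran's I, which is 0 for no likeness between neighbors, lay between 0.28 and 0.34 for *Mmp14* and between 0.22 and 0.29 for *Timp2* over the 4 section and genotype sets. For *Mmp3* it was 0.08 in the control of section 1 and 0.27 in the control of section 2. It was at most 0.07 for *Mmp16*.

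Genes at least 2-fold apart were also counted in the wider network of proteases, inhibitors, activators, inducers and substrates. Of 69 listed genes, 68 were in the table and 53 reached 50 UMIs in both sections. Among these, 2 were at least 2-fold higher in Nf1Postn in both sections and 4 lower, beside the 4.21% and 1.58% of all genes given above. The lower genes were a larger share of the list than of all genes, but the list was chosen with earlier results of these data known. Among these 4, *Acan* and *Col2a1* also belong to the cartilage markers. No enrichment is therefore read from that share. At 1.5-fold, 3 were higher and 12 lower, where 8.2% and 6.37% of all genes were. *Mmp12*, the macrophage elastase, was higher by 2.20 and 1.49 on the log2 scale, and *Timp4* by 1.14 and 2.78. *Mmp9*, a gelatinase abundant in osteoclasts, was lower by -1.22 and -2.04, *Lrp1*, an uptake receptor for proteases and their inhibitors, by -1.07 and -1.17, and the substrate genes *Acan* and *Col2a1* were lower too. Osteoclast markers summed to 5778 and 5056 CPM in the control and 2797 and 1284 CPM in the mutant; their part in the *Mmp9* value was not tested.

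By role, 1 of 10 other MMPs tested was higher and 1 lower, 1 of 3 other inhibitors was higher and 0 lower, and 0 of 14 other ADAMTS genes were called. *Mmp13*, the collagenase of hypertrophic cartilage, was lower by -0.63 and -1.79 and *Adamts3*, a procollagen processing enzyme, by -1.32 and -0.96, each short of 2-fold in 1 section. None of the 5 activators, the 7 inducers or the 7 AP-1 genes tested reached 2-fold in both sections. The AP-1 gene *Junb* was lower by -0.58 and -0.97, and *Jun* was at 0.14 and 0.05.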

How the data were processed

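The deposited tables hold, for 2 sections and each spot under tissue, estimated counts of unique molecules per gene. Per the labels the authors made them with Space Ranger 1.3.0 on mm39, and a second deposited table gives each spot's genotype. Whole numbers fill all rows but 10, none of them a member, and the unnamed row held 11.6 and 6.8 counts and was left out. From these, UMIs were summed over spots of a section and genotype and divided by all UMIs (CPM), with exact Poisson intervals, exact conditional binomial intervals for ratios and exact (Clopper-Pearson) binomial intervals for shares, at 95%. A floor of 3 counts stood for 0. Intervals cover counting error only; depths are given above. Calls needed 2-fold in both sections and at least 50 UMIs in each section. The rule was run on simulated counts with counting error only and planted changes above its cut. That run cannot show how the rule behaves where sections or tissue make-up differ. Since the sources do not settle whether the sections come from the same mice, no test was run.

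Regions came from log2(CPM + 1) of 16774 genes centered per section, 20 principal components, 15 neighbors and Leiden clustering at resolution 0.5 (leidenalg 0.10.2). Authors' cluster names and SpatialTime, from the supporting values, were joined by barcode for 1344 spots and used as labels. Distances assume 100 µm between spots. The sections share 2711 barcodes because array positions have fixed barcodes. TMM factors were from edgeR 4.0.16. Alternatives were leaving out a section, TMM, deeper or thinned spots, another fold or resolution, and, chosen after seeing the data, leaving out the 13 *Mmp3*-rich spots. All 10 members, the listed network genes, the 3 most similar genes of each member (at least 500 UMIs) and regions' leading genes were named by rule; patch genes were chosen after their values were seen. Members and lists were chosen with earlier results of these data known. Protein sequences were not used here. The genes closest to *Mmp16* across tiles are not reported here.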

Additional observations from a re-analysis of the deposited data

How the results depend on the processing

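No paired analysis was possible because no result comes from a test; whether the sections share mice is not settled. Leaving out a section moved the members at least 2-fold higher in Nf1Postn between 0 and 1 (*Mmp3*, without section 2) and those lower between 0 and 2 (*Mmp14* and *Timp1*, without section 1), network genes higher between 2 and 4 and lower between 6 and 9. It moved members 2-fold in a region between 5 and 6, and the pairs of member and region 2-fold apart between 2.17% and 3.45%, against 7.94% over both. The log2 ratio ranged from -0.99 to 1.79 for *Mmp3* and from -0.98 to 0.062 for *Adamts4*. At 1.5-fold, 2 members and 12 network genes were lower; at 3-fold, 0 network genes were higher and 2 lower. With TMM factors 1 member (*Timp1*) was lower and 1 network gene higher. At resolution 0.3, 2 members reached 2-fold in a region (*Mmp3* and *Mmp16*). Between the SpatialTime ends, 2 members were 2-fold apart by mean log2(CPM + 1) (*Timp1* and *Adamts4*, and not *Mmp16*) and 4 in thinned spots. Signs turned for *Mmp2* (0.22), *Mmp3* (0.43), *Mmp16* (0.28) and *Adamts4* (0.39) without the regions led by muscle, regenerating muscle or red cell markers. The mutant spots then kept include the 83 of the *Gap43*, *Lgi4* and *Cldn1* region, which held 63 *Mmp3* UMIs (139 CPM) and no control spots. The part of that region in these turns was not tested. *Mmp3* also turned without its 13 rich spots (0.37). By mean log2(CPM + 1), which follows depth, signs turned for *Timp3* (-0.89, and -0.40 along SpatialTime) and *Adamts5* (-0.35). Of 99 single-gene values under an alternative, 46 stayed within the interval of the value reported, 43 left it and 10 turned sign from an interval on 1 side of 0. Of the 43, 1 also changed sign, from an interval that included 0: *Mmp3* along SpatialTime (-0.62, and 1.31 in thinned spots). The causes were not tested. Depth limits *Mmp10* most, with 19 UMIs.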
